A study of Rattus norvegicus with 30 samples.

Results

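The genes described here are 2 WNT ligands, Wnt5a and Wnt5b, 6 secreted inhibitors of WNT signaling, Sfrp1, Sfrp2, Sfrp4, Frzb, Dkk2 and Dkk3, and Axin2, an intracellular gene that WNT signaling induces. They were chosen by name, with earlier results of these data known. All 9 were found among the 13124 genes of the count table and passed the filter on low counts, a mean of 3 CPM or more in any group. With 3 CPM required in every group, the other reading of the study's filter, Frzb was not tested. Transcripts were counted by RNA sequencing in plantaris tendons of 30 Sprague Dawley rats, which were young adult males. The question behind the study was whether GSK2894631A, an oral inhibitor of hematopoietic PGD synthase (HPGDS), alters tendon healing. Control tendons (n = 3) had no surgery and no compound. The other 27 tendons were cut through the midsubstance and repaired with suture in the same operation, and the rats were gavaged 2 times a day with vehicle carrying GSK2894631A at 0, 2 or 6 mg/kg until tendons were collected 7 or 21 days later. The groups held 5, 4 and 3 tendons at 7 days (7D 0, 2 and 6 mg/kg) and 5 tendons each at 21 days (21D 0, 2 and 6 mg/kg). The operation, the gavage (which is not described for the control rats in the sources used here) and the injury cannot be told apart in a comparison with control tendons. Total counts were 12405741 to 49909374 per tendon.

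WNT proteins are secreted, lipid-modified ligands that bind Frizzled receptors. With the coreceptors Lrp5 and Lrp6 they stabilize beta-catenin, which then enters the nucleus and drives target genes together with TCF and LEF factors. Wnt5a and Wnt5b are known mainly for signaling without beta-catenin, through receptors such as Ror2. Secreted Frizzled-related proteins (Sfrp genes, with Frzb being another member of that family) carry a Frizzled-like domain and bind WNT ligands outside the cell, while Dkk2, a Dickkopf protein, acts at the Lrp coreceptors. In tendon, WNT genes are known from work on tenocyte differentiation and on scar fibroblasts.

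Tendon markers were present in every group. Col1a1, the main collagen chain of tendon, had the most CPM, unscaled by length, of the 7 tendon markers measured in every library. Mkx, a tendon transcription factor, was low. Controls had 5.68 ± 3.37 CPM (SD, n = 3), and the 5 tendons of the 7D 0 mg/kg group had 0.329 ± 0.183 CPM (SD). Here CPM is the count relative to library size, with library sizes scaled by TMM, which corrects for the few genes that dominate a library. A list of 14 skeletal muscle markers made up between 16.6 and 23.9% of each control library. It made up 0.143 to 1.10% at 7D 0 mg/kg, 0.00748 to 0.00942% at 7D 2 mg/kg and 0.00764 to 0.00934% at 7D 6 mg/kg. By 21 days it ranged from 0.0567 to 6.87% with 0 mg/kg, from 1.09 to 2.82% with 2 mg/kg and from 0.298 to 8.38% with 6 mg/kg. Its genes with the most CPM in controls were Myh4 and Acta1. The tendons of every repaired group were below the 3 controls in this share, and the TMM factors were 0.599 to 0.789 in controls and 0.950 to 1.095 in repaired tendons. The controls also differed among themselves. In replicates 2, 3 and 4 the 7 cartilage markers, led by Chad, summed to 1769, 276 and 163 CPM, so replicate 2 was high. The 7 macrophage markers summed to 1068, 834 and 275 CPM, the tendon markers took 2.64, 1.52 and 0.531% of the counts and the muscle markers 16.7, 16.6 and 23.9%, so replicate 4 was the lowest in macrophage and tendon markers and the highest in muscle. Replicate 4 also had the lowest TMM factor, at 0.599 against 0.737 and 0.789, and the largest chi-square per gene against the other 2 controls, at 323 and 299, where replicates 2 and 3 had 71.9.

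**Figure D1:**
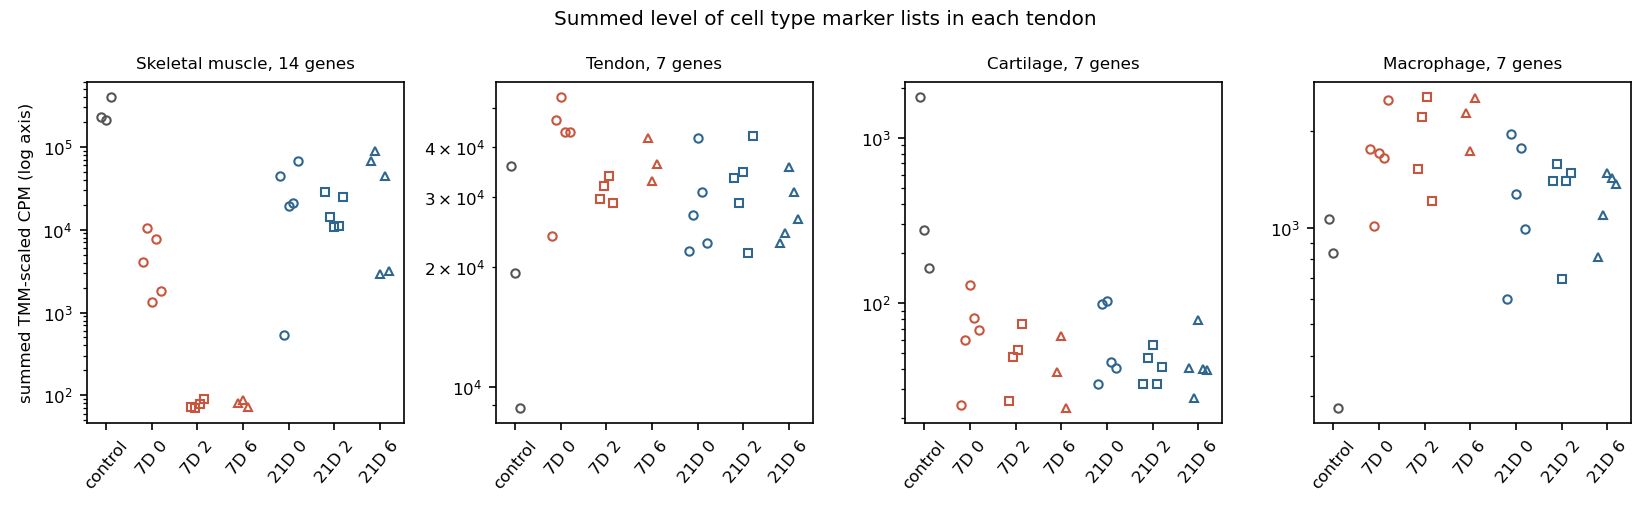
Summed TMM-scaled CPM (log axis) of 4 lists of cell type markers in each tendon, with groups on the horizontal axis given as days after repair and dose in mg/kg, and 1 point per tendon. Muscle markers are highest in the 3 controls and lowest at 7D 2 mg/kg and 7D 6 mg/kg, while 1 control has 1769 CPM of cartilage markers.

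Compared to control tendons, the largest fold changes among the 9 genes at 7 days were rises in the Frizzled-related inhibitors. Sfrp4 was 9.83-fold higher in the 7D 0 mg/kg group, Sfrp2 6.65-fold, Frzb 5.53-fold and Sfrp1 5.07-fold. At 21 days Sfrp4 was still 9.28-fold higher at 0 mg/kg, whereas Sfrp1 was 2.31-fold and Sfrp2 1.86-fold higher, and the 1.82-fold difference in Frzb did not pass the test. Of the Dickkopf genes, Dkk3 was higher than in controls, 3.16-fold at 21D 0 mg/kg, and Dkk2 was lower. Axin2 was lower in the 7D 0 mg/kg group, and Wnt5a and Wnt5b did not pass the test at 0 mg/kg at either time. The summed macrophage and tendon markers had higher medians after repair as well. The 7 macrophage markers, of which C1qa had the most CPM in controls and none was at 0, summed to a median of 834 CPM in controls, 1708, 1875 and 2277 CPM at 7D 0, 2 and 6 mg/kg, and 1272, 1404 and 1368 CPM at 21 days, and 6 of the 7 were called higher at 7D 0 mg/kg and 4 at 21D 0 mg/kg. Of the 7 tendon markers 1 was called higher and 3 lower at 7D 0 mg/kg, and Col1a1, which makes up most of their sum, was at 18426 CPM in controls, 40499 CPM at 7D 0 mg/kg and 26464 CPM at 21D 0 mg/kg. Summed cartilage markers had a median of 276 CPM in controls and 37.99 to 68.5 CPM in the repaired groups, but the list did not move as 1. At 7D and 21D 0 mg/kg the means of Chad, Clec3a, Col2a1 and Hapln1 were below control and those of Acan, Matn3 and Sox9 above. Chad was at 420 ± 470 CPM (SD) in controls, 7.83 at 7D and 6.39 at 21D 0 mg/kg, and Acan at 12.4, 47.9 and 43.6 CPM. The part of these cell types in the changes of the WNT genes was not tested.

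By edgeR's quasi-likelihood test at an adjusted p under 0.05, 7 of the 9 genes differed from control in the 7D 0 mg/kg group, 5 higher and 2 lower, where 71.4% of the 12558 genes tested differed (35.8% higher and 35.6% lower). At 7D 2 mg/kg 5 were higher and 1 lower (69.7% of all genes differed, 35.8% higher and 34% lower). With 6 mg/kg at that time 6 were higher and 1 lower (67.9%, 34.1% and 33.8%). Frzb was among the genes called higher at every dose at 7 days, and it was tested only because it was high there. At 21D 0 mg/kg the test called 4 higher and 1 lower (65.9%, 32.2% and 33.7%), with 2 mg/kg it called 4 higher and 2 lower (69.1%, 33.8% and 35.3%), and with 6 mg/kg again 4 higher and 2 lower (64.1%, 30.8% and 33.3%). Most genes differed from control, so the number of WNT genes called, 5 to 7 of 9, was close to the background. The median log2 fold change of the 9 genes was 0.97 at 7D 0 mg/kg and 0.87 at 21D 0 mg/kg, against 0.05 and 0.03 for all genes tested. These medians include Frzb, which was tested only because it was high at 7 days. At 21D 0 mg/kg the median is the value of Frzb itself, which was not called. The medians therefore support nothing on the 9 genes as a set. All 6 comparisons use the same 3 controls. Leaving out control replicate 2, 3 or 4 gave 6 to 8 of the 9 genes called at 7D 0 mg/kg and 4 to 7 at 21D 0 mg/kg. Counts of all genes called without each control are not given, so these shifts cannot be set beside the background. With library sizes and TMM computed without the muscle markers, the call of no WNT gene changed in any comparison. With the share of muscle counts as a covariate, 3 genes were called at 7D 2 mg/kg and 2 at 7D 6 mg/kg, where every tendon has almost no muscle counts. Under that covariate 1381 and 1408 of all 12558 genes were called there. The WNT genes that lost theirs were Frzb, Dkk2 and Dkk3 at 2 mg/kg and these genes, Wnt5a and Sfrp1 at 6 mg/kg. The log2 fold change of Frzb was then 2.47 and 2.68, as before, that of Dkk2 -1.04 and -1.01, that of Dkk3 0.30 and 0.41 (0.90 and 1.01 before), that of Wnt5a at 6 mg/kg 0.59 and that of Sfrp1 at 6 mg/kg 1.61. The muscle share did not overlap between controls and any repaired group, so this covariate and repair cannot be told apart in comparisons with control. In bulk tissue fewer cells of a type and less RNA per cell cannot be told apart.

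**Figure D2:**
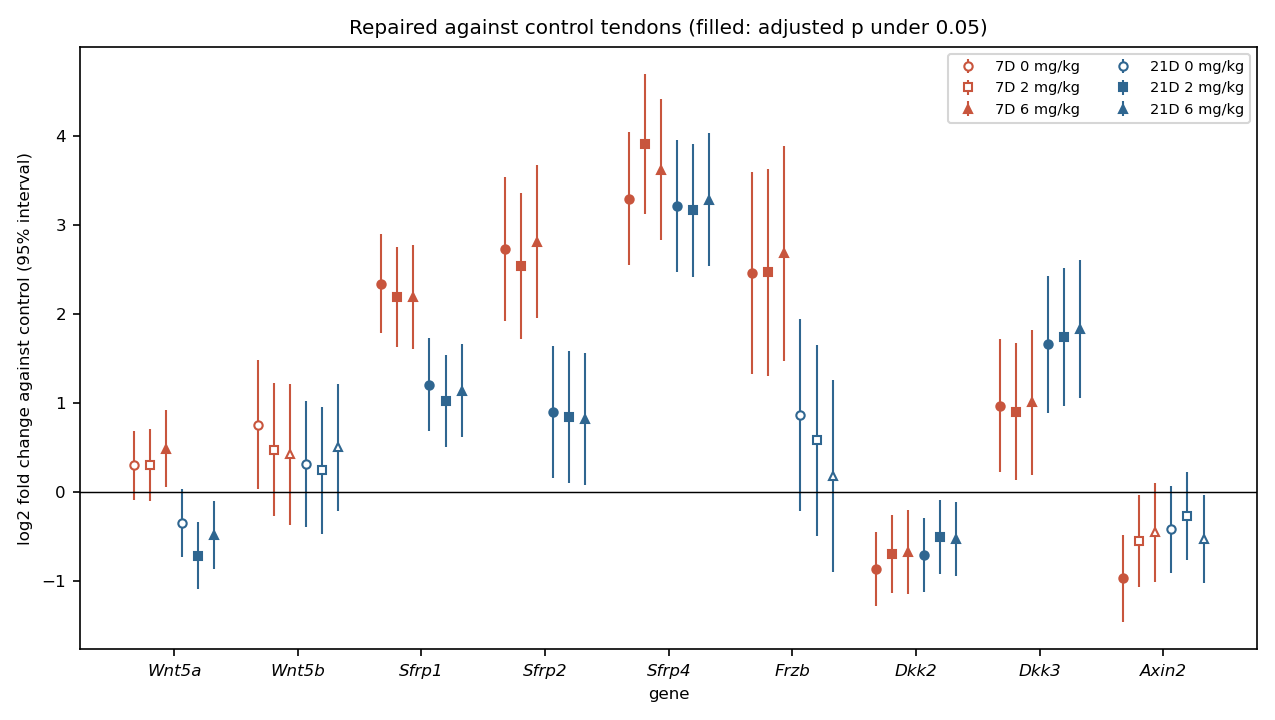
Log2 fold change of each gene in the 6 repaired groups against control tendons, from edgeR's quasi-likelihood fit with 95% intervals, where filled symbols passed an adjusted p of 0.05. Sfrp1, Sfrp2 and Sfrp4 are filled above 0 in all 6 groups, Frzb only at 7 days, and Dkk2 is filled below 0 in all 6.

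Wnt5a (ENSRNOG00000015618, chromosome 16 of rn6) was counted at 11.7, 15.9 and 15.9 CPM in the 3 controls. In the 7D 0 mg/kg group it was at 15.4, 19.5, 21.2, 18.0 and 15.6 CPM, and in the 21D 0 mg/kg group at 11.3, 10.4, 12.2, 10.6 and 12.4 CPM. Over the 12 tendons at 7 days the lowest, median and highest values were 13.7, 17.8 and 25.8 CPM, and over the 15 tendons at 21 days they were 6.43, 10.6 and 12.5 CPM. Thus every tendon at 7 days lay above every tendon at 21 days, and 1 control lay within the 21-day range and the other 2 within the 7-day range. Against control Wnt5a was called higher only at 7D 6 mg/kg (log2 fold change 0.49, standard error 0.21, adjusted p = 0.0423) and lower at 21D 2 mg/kg (-0.71, adjusted p = 0.00152) and 21D 6 mg/kg (-0.48, adjusted p = 0.0258). At 7D 0 mg/kg the log2 fold change was 0.30 (95% interval -0.08 to 0.69, adjusted p = 0.152) and at 21D 0 mg/kg -0.35 (-0.73 to 0.03, adjusted p = 0.1003). The call at 7D 6 mg/kg was lost without control replicate 2 (0.30, adjusted p = 0.263), without control replicate 4 (0.52, adjusted p = 0.0619) or without 7D 6 mg/kg replicate 1 (0.28, adjusted p = 0.285). It was also lost with RLE size factors (0.45, adjusted p = 0.0645), with only the compared groups in the fit (0.45, 0.150) and with the muscle covariate (0.59, 0.368). At 21D 6 mg/kg the call was lost without control replicate 3 (adjusted p = 0.117), control replicate 4 (0.0679), or replicate 2 (0.0546) or 5 (0.0605) of that group, or with the muscle covariate (0.0865), and with libraries scaled by total counts alone, without TMM, the sign turned (0.02, adjusted p = 0.923). Without TMM Wnt5a was also called higher at 7D 0 mg/kg (0.90) and 7D 2 mg/kg (0.87) and was not called at 21D 2 mg/kg (-0.18, adjusted p = 0.404). Leaving out control replicate 2 brought a call at 21D 0 mg/kg (-0.54, adjusted p = 0.0271).

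Wnt5b (ENSRNOG00000008168, chromosome 4) was counted at 14.3 CPM in control replicate 2 and at 3.52 and 3.999 CPM in the other 2 controls. It was at 10.5, 15.9, 9.25, 15.8 and 10.4 CPM in the 7D 0 mg/kg group and at 8.28, 7.42, 11.6, 10.2 and 7.98 CPM in the 21D 0 mg/kg group. The repaired tendons ranged from 6.50 to 16.8 CPM, so 2 of the controls lay below all of them and the third lay within their range. By edgeR's quasi-likelihood test no comparison with control passed. The nearest was 7D 0 mg/kg, with a log2 fold change of 0.76 (95% interval 0.04 to 1.48, adjusted p = 0.0554). That comparison was called by DESeq2 (0.73, adjusted p = 0.0427), by limma (1.03, 0.00771), with no filter on low counts (0.78, 0.0489) and without TMM (1.33, 0.00216), and limma also called 21D 6 mg/kg (0.75, 0.0489). Without TMM 7D 2 and 6 mg/kg and 21D 0 and 6 mg/kg were called too. Without control replicate 2, Wnt5b was called higher in each of the 6 groups, with log2 fold changes of 1.65 (adjusted p = 0.000100), 1.38 and 1.33 at 7 days and 1.22, 1.12 and 1.40 at 21 days for 0, 2 and 6 mg/kg. At 7D 0 mg/kg a call also appeared without replicate 3 of that group (0.85, adjusted p = 0.0423). Control replicate 2 also had the most cartilage and tendon marker counts of the 3, and their part in this result was not tested.

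Sfrp1 (ENSRNOG00000017783, chromosome 16) was counted at 23.4, 56.0 and 16.4 CPM in controls. It was at 138, 173, 177, 145 and 180.4 CPM in the 7D 0 mg/kg group and at 52.6, 91.9, 76.9, 73.3 and 75.3 CPM in the 21D 0 mg/kg group. All 12 tendons at 7 days, from 126 to 180.4 CPM with a median of 152 CPM, were above all 15 at 21 days, from 52.6 to 91.9 CPM with a median of 72.5 CPM. The highest control overlapped the lowest tendons at 21 days. The log2 fold change against control was 2.34 (standard error 0.27, adjusted p = 4.21e-08), 2.19 and 2.19 at 7D 0, 2 and 6 mg/kg and 1.21 (0.255, adjusted p = 0.000225), 1.02 and 1.14 at 21 days, all called. Leaving out any 1 tendon kept each of these 6 calls. Without control replicate 3, the highest control, the log2 fold changes were larger, at 3.05, 2.895 and 2.89 at 7 days and 1.92, 1.74 and 1.84 at 21 days.

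Sfrp2 (ENSRNOG00000009465, chromosome 2) was counted at 69.8, 52.3 and 31.9 CPM in controls. At 7D 0 mg/kg the 5 tendons had 259, 350.1, 293, 367 and 438 CPM, and at 21D 0 mg/kg they had 60.2, 63.3, 119, 145 and 91.4 CPM. Over all doses the lowest, median and highest values were 255, 353 and 438 CPM at 7 days and 36.3, 91.6 and 163 CPM at 21 days, so the times did not overlap while the 21-day range covered most of the control range. At 7 days the log2 fold change came to 2.73 (adjusted p = 1.30e-06, standard error 0.395), 2.54 and 2.81 for rising dose, and each call held without any 1 tendon. At 21 days it was 0.90 (adjusted p = 0.0309), 0.84 (0.0402) and 0.82 (0.0477). These calls depended on single tendons and on the processing. All 3 were lost with only the compared groups in the fit (0.90, 0.85 and 0.80, adjusted p of 0.0692, 0.155 and 0.0524) and with a replicate block (0.87, 0.80 and 0.81). In both the log2 fold changes stayed about as large. The call at 2 mg/kg was also lost with limma (0.72, adjusted p = 0.0714), and that at 6 mg/kg with RLE size factors (0.79, 0.0559) or the muscle covariate (0.96, 0.0565). Without control replicate 4 the values were 0.60, 0.54 and 0.53, with adjusted p of 0.199, 0.248 and 0.265, and without control replicate 3 they were 0.95, 0.89 and 0.86, with adjusted p of 0.0579, 0.0688 and 0.0845. They were also lost without 21D 0 mg/kg replicate 3 or 4 (0.84 and 0.70), without 21D 2 mg/kg replicate 1, 3 or 5 (0.82, 0.77 and 0.53) and without 21D 6 mg/kg replicate 1, 3 or 4 (0.82, 0.72 and 0.73).

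Sfrp4 (ENSRNOG00000054957, chromosome 17) showed the largest fold change of the 9 genes against control at either time. Controls had 119, 156 and 48.5 CPM, the 7D 0 mg/kg tendons 1823, 1186, 587, 738 and 968 CPM, and the 21D 0 mg/kg tendons 814, 1236, 986, 789 and 1182 CPM. No repaired tendon overlapped the controls. The 12 tendons at 7 days spread from 587 to 2190.1 CPM (median 1238 CPM), which contained the whole range at 21 days, 789 to 1236 CPM (median 991 CPM). The log2 fold change came to 3.30 (adjusted p = 2.20e-08, standard error 0.364), 3.91 and 3.62 at 7 days and 3.21 (0.362, adjusted p = 7.34e-08), 3.16 and 3.29 at 21 days, all called under every alternative and without any 1 tendon.

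Frzb (ENSRNOG00000007765, chromosome 3), also known as Sfrp3, had few reads, with 9, 45 and 20 counts in the 3 controls, or 0.424, 1.80 and 1.63 CPM. It was at 6.55, 7.42, 10.9, 4.03 and 6.50 CPM in the 7D 0 mg/kg group and at 2.34, 1.73, 2.29, 1.81 and 3.50 CPM in the 21D 0 mg/kg group. The 7-day tendons had 2.47 to 11.5 CPM (median 6.60 CPM), all above the controls, and the 21-day tendons 0.799 to 3.73 CPM (median 1.73 CPM), overlapping both. Against control the log2 fold change came to 2.47 (adjusted p = 0.000321, standard error 0.551), 2.47 and 2.68 at 7 days, all called. Frzb passed the filter only through the 7-day groups, with means of 7.07, 7.14 and 8.18 CPM, while controls (1.29 CPM) and the 21-day groups (2.33, 1.92 and 1.45 CPM) were under 3 CPM, so it was tested only because it was high at 7 days and its calls support nothing on the 9 genes as a set. With no filter on low counts the calls at 7 days were made too. At 21 days it was 0.87 (95% interval -0.21 to 1.95), 0.58 (-0.49 to 1.66) and 0.18 (-0.89 to 1.26), none called. Without TMM the 21D 0 mg/kg value was 1.42 and was called (adjusted p = 0.0182).

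Dkk2 (ENSRNOG00000011360, chromosome 2), which binds the Lrp coreceptors, moved the other way. It was at 66.1, 50.9 and 46.0 CPM in controls, at 33.7, 29.003, 25.8, 19.6 and 41.8 CPM in the 7D 0 mg/kg group and at 27.0, 25.7, 39.5, 39.8 and 34.4 CPM in the 21D 0 mg/kg group. Every 7-day tendon, up to 41.8 CPM, was below every control, while the 21-day tendons reached 48.7 CPM and overlapped the lowest control at 2 and 6 mg/kg. The log2 fold change came to -0.86 (adjusted p = 0.000521, standard error 0.201), -0.69 and -0.67 at 7 days and -0.71 (0.202, adjusted p = 0.00346), -0.50 and -0.53 at 21 days, called lower in all 6 groups. When libraries were scaled by total counts alone, without TMM, none of the 6 was called, with log2 fold changes of -0.28, -0.14 and -0.09 at 7 days and -0.17, 0.02 and -0.03 at 21 days. That scaling raised the median log2 fold change of all genes from 0.05 to 0.64 at 7D 0 mg/kg, and the share of calls that were higher from 50.1% to 75.6%, so Dkk2 was lower relative to the other genes under both. Without control replicate 2 the call was lost at 7D 6 mg/kg (-0.56, adjusted p = 0.0546), 21D 2 mg/kg (-0.41, 0.112) and 21D 6 mg/kg (-0.43, 0.106). At 21D 2 mg/kg it was also lost without control replicate 3 (-0.51, 0.0598) or replicate 3 (-0.48, 0.0551) or 5 (-0.41, 0.0825) of that group, and at 21D 6 mg/kg without its replicate 2 (-0.42, 0.0686).

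Dkk3 (ENSRNOG00000016343, chromosome 1), a divergent Dickkopf family member, was at 204.5, 66.1 and 37.7 CPM in controls, again highest in control replicate 2. It was at 174, 223, 192, 229 and 189.8 CPM at 7D 0 mg/kg and at 257.5, 243, 534, 302 and 290.4 CPM at 21D 0 mg/kg. The 7-day tendons (140.1 to 248 CPM, median 196 CPM) surrounded the highest control, and the 21-day tendons (234 to 568 CPM, median 322 CPM) were all above the controls. The log2 fold change came to 0.97 (adjusted p = 0.0195, standard error 0.362), 0.90 and 1.01 at 7 days and 1.66 (0.374, adjusted p = 0.000433), 1.74 and 1.83 at 21 days, all called. At 7 days the calls were lost without control replicate 3 (adjusted p of 0.101, 0.151 and 0.115) or 4 (0.183, 0.252 and 0.175), and when only the 2 groups compared entered the fit (0.110, 0.182 and 0.185). The log2 fold changes were 0.76, 0.68 and 0.79 without control replicate 3 and 0.52, 0.46 and 0.58 without replicate 4. In the fit of the 2 groups they stayed about as large, at 0.94, 0.88 and 0.99. The calls were also lost with the muscle share as a covariate, where the log2 fold changes were 0.68 (adjusted p = 0.260), 0.30 (0.837) and 0.41 (0.771). Without control replicate 2 the log2 fold changes at 7 days were 1.89, 1.83 and 1.94. At 7D 2 mg/kg the call was also lost without replicate 2 (0.76) or 3 (0.89) of that group, and at 7D 6 mg/kg without replicate 4 (0.89). All 3 calls at 21 days held without any 1 tendon, but the log2 fold changes were 2.59, 2.65 and 2.75 without control replicate 2.

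Axin2 (ENSRNOG00000055010, chromosome 10) encodes a scaffold of the complex that degrades beta-catenin and is widely used as a readout of WNT signaling through beta-catenin. Its promoter is shown because TCF and LEF factors act on it. RefSeq sequences upstream of the start were found for 4 of the 9 genes. The 250 bases before the start in the GRCr8 assembly, plus strand, at chr10:94398535-94398784, are given 5′ to 3′ with each match to the TCF and LEF core letters CTTTGA (or TCAAAG on the other strand) in capitals.
Axin2: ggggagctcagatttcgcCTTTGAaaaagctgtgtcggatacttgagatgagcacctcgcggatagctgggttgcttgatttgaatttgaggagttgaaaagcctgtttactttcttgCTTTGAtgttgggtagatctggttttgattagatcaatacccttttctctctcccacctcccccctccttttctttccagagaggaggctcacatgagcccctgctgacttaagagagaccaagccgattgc
The 2 matches end 227 and 127 bases before the start. Of 33469 rat promoters of the same length, 13.9% held at least 1 match and 1.40% held 2 or more. A match of letters describes the sequence and was not tested as a binding site.

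In controls Axin2 was counted at 8.96, 9.97 and 5.63 CPM. The 7D 0 mg/kg tendons had 4.96, 4.03, 4.39, 3.74 and 3.92 CPM, all below the lowest control, and the 21D 0 mg/kg tendons had 6.23, 4.62, 6.75, 6.78 and 6.40 CPM, which overlapped it. Over all doses Axin2 was at 3.74 to 8.81 CPM at 7 days (median 4.40 CPM) and at 4.31 to 7.41 CPM at 21 days (median 6.51 CPM). At 7D 0 mg/kg its log2 fold change was -0.97 (adjusted p = 0.000827, standard error 0.237), the only comparison called by edgeR's quasi-likelihood test. DESeq2 also called 7D 2 mg/kg (-0.58, adjusted p = 0.0300) and 21D 6 mg/kg (-0.56, 0.0296), RLE size factors called both (0.0427 and 0.0426), and limma called 7D 2 mg/kg (-0.56, 0.0483). With 2 mg/kg it was -0.55 (adjusted p = 0.0559), at 7D 6 mg/kg -0.45 (0.141), and at 21 days -0.42 (0.126), -0.27 (0.322) and -0.52 (0.0572). Without TMM the 7D 0 mg/kg value was -0.40 (adjusted p = 0.151). Without control replicate 4, the lowest control, Axin2 was also called lower at 7D 2 mg/kg (-0.80, adjusted p = 0.0106), 7D 6 mg/kg (-0.69, 0.0347), 21D 0 mg/kg (-0.67, 0.0265) and 21D 6 mg/kg (-0.77, 0.0117). Leaving out 7D 2 mg/kg replicate 3 or 4 (-0.64 and -0.75), 7D 6 mg/kg replicate 1 (-0.85) or 21D 6 mg/kg replicate 2 (-0.64) brought the call of that group too.

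**Figure D3:**
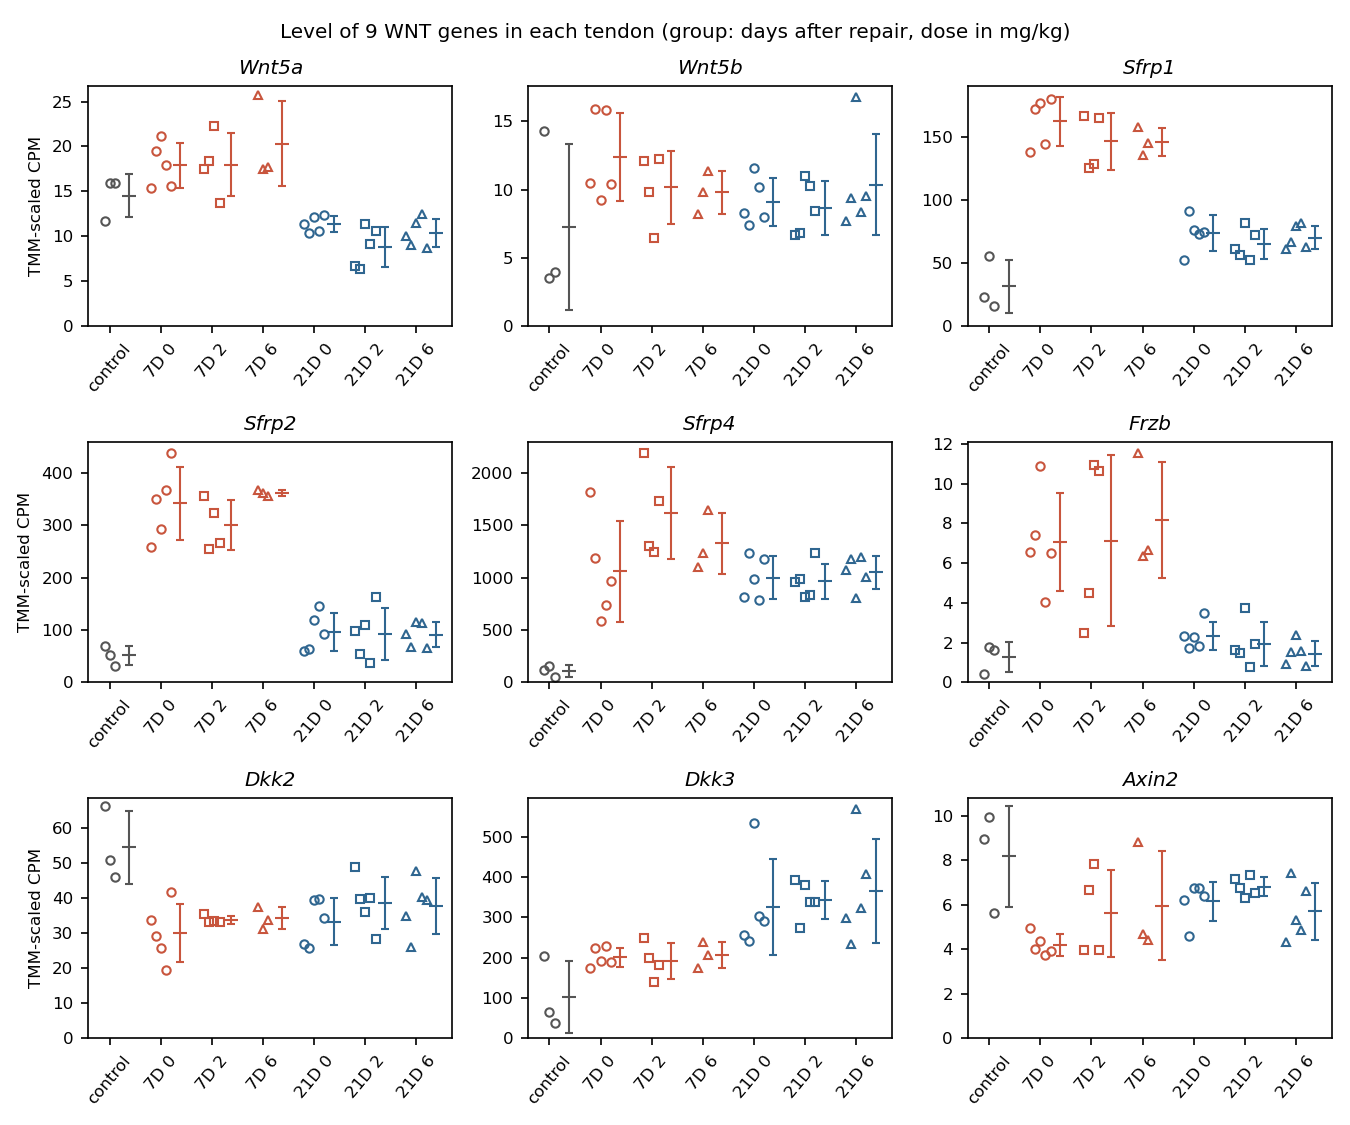
TMM-scaled CPM of each gene (vertical axis, from 0) in each tendon, by group on the horizontal axis as days after repair and dose in mg/kg, with the mean and SD of each group drawn beside its points. For Wnt5a, Sfrp1 and Sfrp2 all 12 tendons at 7 days lie above all 15 at 21 days, while Sfrp4 stays high at both times and Dkk3 is highest at 21 days.

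Next, 21-day and 7-day tendons were compared at each dose. The control means do not enter that contrast, although the controls were part of the fit. Wnt5a, Sfrp1, Sfrp2 and Frzb were lower at 21 days at every dose, Frzb having passed the filter only through its 7-day groups. In order of dose, Sfrp2 was 3.56-, 3.26- and 3.98-fold lower, Frzb 3.03-, 3.70- and 5.65-fold, Sfrp1 2.20-, 2.25- and 2.08-fold, and Wnt5a 1.57-, 2.03- and 1.96-fold. By edgeR's quasi-likelihood test no gene of the 9 was called higher at 21 days, although DESeq2 called Dkk3 higher at 2 mg/kg (0.85, adjusted p = 0.0417), as did the edgeR fit of the 2 compared groups alone (0.83, adjusted p = 0.0108). Among all genes 2.47% were called lower and 2.88% higher at 0 mg/kg (5.35% in either direction), 5.98% lower and 7.09% higher at 2 mg/kg (13.1%), and 4.55% lower and 8.54% higher at 6 mg/kg (13.1%), beside 4 of the 9 called lower at each dose, or 3 of the 8 other than Frzb. The 9 genes were chosen with earlier results of these data known, so these counts support nothing on them as a set.

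For Sfrp2 the log2 fold change from 7 to 21 days was -1.83 (standard error 0.310, adjusted p = 0.00182), -1.70 (adjusted p = 0.000983) and -1.99 (0.000615) at 0, 2 and 6 mg/kg. For Frzb it was -1.60 (standard error 0.425, adjusted p = 0.0287), -1.89 and -2.499. The Frzb call at 0 mg/kg was lost without 7D 0 mg/kg replicate 3 (-1.39, adjusted p = 0.0958) or 5 (-1.63, 0.0522), or without 21D 0 mg/kg replicate 1 (-1.60, 0.0634) or 4 (-1.52, 0.0662). For Sfrp1 the change was -1.14 (standard error 0.212, adjusted p = 0.00417), -1.17 and -1.06. For Wnt5a it was -0.65 (standard error 0.162, adjusted p = 0.0213), -1.02 and -0.97, and at 0 mg/kg it was not called without 7D 0 mg/kg replicate 3 (-0.59, adjusted p = 0.0739). Without that tendon 2 of the 9 genes were called at 0 mg/kg instead of 4, and a count of all genes is not given for that fit. At each dose the groups compared did not overlap for Wnt5a, Sfrp1 and Sfrp2, while those of Frzb overlapped at 2 mg/kg. The share of all genes without overlap is not given, so this supports nothing on these genes as a set. The summed macrophage markers also had lower medians at 21 than at 7 days, from 1708 to 1272 CPM at 0 mg/kg, 1875 to 1404 CPM at 2 mg/kg and 2277 to 1368 CPM at 6 mg/kg. Their ranges overlapped at 0 and 2 mg/kg but not at 6 mg/kg (1732 to 2530 CPM against 814 to 1481 CPM). Their part in the lower values of these genes was not tested. Muscle markers were more abundant in 21-day than in 7-day tendons at 2 and 6 mg/kg. With the muscle share as a covariate 3 of these 4 genes were called at 0 mg/kg, where the share overlapped between times and the call of Frzb was lost (-1.60, adjusted p = 0.0774). With that covariate 2 were called at 2 mg/kg and 0 at 6 mg/kg, where it called 1786 and 277 of all 12558 genes. The calls lost at 2 mg/kg were those of Sfrp1 (-0.77) and Frzb (-1.89), and the log2 fold changes at 6 mg/kg stayed negative, at -1.05 for Wnt5a, -0.64 for Sfrp1, -2.31 for Sfrp2 and -2.4998 for Frzb. At 2 and 6 mg/kg the muscle share did not overlap between 7 and 21 days, so this covariate and the time point cannot be told apart there.

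The remaining genes did not pass the test between times. Dkk3 was higher at 21 days by 0.69 (95% interval 0.07 to 1.32, adjusted p = 0.164), 0.84 (0.17 to 1.51, 0.0884) and 0.82 (0.08 to 1.56, 0.136) on the log2 scale. Sfrp4 differed by -0.08 (-0.64 to 0.47), -0.74 (-1.33 to -0.16, adjusted p = 0.0824) and -0.34 (-0.97 to 0.30). At 2 mg/kg the 21-day tendons were all below the 7-day tendons, and the fit of these 2 groups alone called Sfrp4 lower (-0.75, adjusted p = 0.0263). Dkk2 differed by 0.15, 0.19 and 0.14, Axin2 by 0.55 (0.12 to 0.98, adjusted p = 0.108), 0.28 and -0.07, and Wnt5b by -0.44, -0.23 and 0.08.

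**Figure D4:**
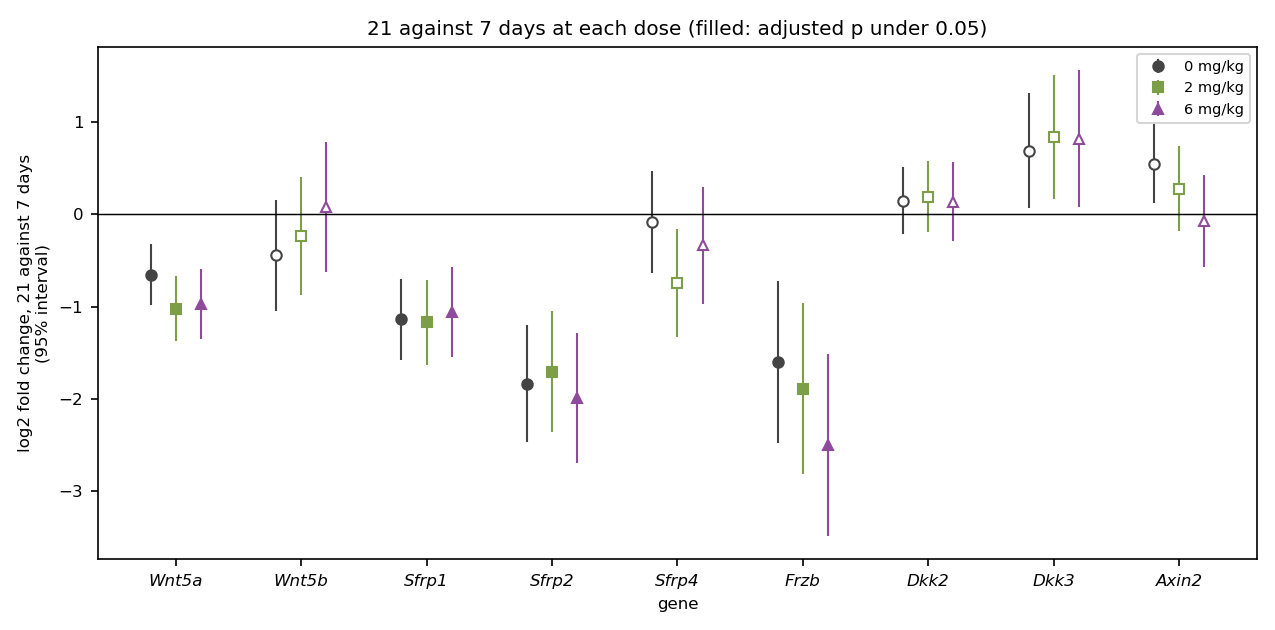
Log2 fold change of each gene at 21 against 7 days, at 0, 2 and 6 mg/kg, from edgeR's quasi-likelihood fit with 95% intervals, where filled symbols passed an adjusted p of 0.05. Wnt5a, Sfrp1, Sfrp2 and Frzb are filled below 0 at every dose, and no other gene is filled.

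Promoters of 3 of the 4 genes that were lower at 21 days are given for comparison with that of Axin2. Each is the 250 bases before the RefSeq start in GRCr8, 5′ to 3′ on the strand of the gene: chr16:3703415-3703664, plus strand, for Wnt5a, chr2:171387286-171387535, plus strand, for Sfrp2 and chr3:85772097-85772346, minus strand, for Frzb. None of the 3 windows holds the letters CTTTGA or TCAAAG, so no base is in capitals, and nothing about TCF or LEF factors follows from that.
Wnt5a: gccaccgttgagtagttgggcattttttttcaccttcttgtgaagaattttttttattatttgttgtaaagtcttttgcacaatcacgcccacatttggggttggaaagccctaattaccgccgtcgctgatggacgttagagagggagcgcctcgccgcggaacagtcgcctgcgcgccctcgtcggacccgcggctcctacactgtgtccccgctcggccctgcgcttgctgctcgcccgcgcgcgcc
Sfrp2: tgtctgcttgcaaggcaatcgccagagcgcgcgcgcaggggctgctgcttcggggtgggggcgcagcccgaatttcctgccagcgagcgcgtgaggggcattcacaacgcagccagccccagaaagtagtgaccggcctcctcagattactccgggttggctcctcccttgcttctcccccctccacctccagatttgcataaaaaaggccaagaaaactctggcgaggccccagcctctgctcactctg
Frzb: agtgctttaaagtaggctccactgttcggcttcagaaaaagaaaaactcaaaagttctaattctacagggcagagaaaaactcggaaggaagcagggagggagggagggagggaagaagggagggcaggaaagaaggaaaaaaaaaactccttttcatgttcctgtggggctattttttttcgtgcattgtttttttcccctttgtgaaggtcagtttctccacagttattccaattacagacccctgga

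The effect of GSK2894631A was then tested within each time point. None of the 9 genes was called in any of the 6 comparisons between doses, in the test across the 3 doses at 7 or at 21 days, or in the interaction of dose with time, by edgeR's quasi-likelihood test, DESeq2 or limma. By edgeR's test 2.36% of all genes were called at 7 days between 2 and 0 mg/kg, 0.39% for 6 against 0 mg/kg, 2.05% across the doses, 0.39% in the interaction, and 0% in the other comparisons. DESeq2 called 710 and 194 of all 12558 genes for 2 and 6 against 0 mg/kg at 7 days, 69 for 6 against 2 mg/kg at 7 days, and 19, 1 and 254 for 2 against 0, 6 against 0 and 6 against 2 mg/kg at 21 days, and limma called 280 and 76 for the first pair and 0 for the rest of these 6. With the muscle share as a covariate 1337 and 604 genes were called for the first pair, 822 and 410 of them higher. The main fit called 296 and 49, of which 114 and 0 were higher. The muscle share did not overlap between 7D 0 mg/kg (0.143 to 1.10%) and 7D 2 mg/kg (at most 0.00942%) or 6 mg/kg (at most 0.00934%). This covariate and the dose therefore cannot be told apart there. At an unadjusted p under 0.05, 1 of the 9 genes was counted in each of 3 comparisons and 0 in the others. Of all 12558 genes 1942, 746 and 1078 were counted in those 3 (at 7 days 2 and 6 against 0 mg/kg, at 21 days 2 against 0 mg/kg) and 810 to 1751 in the others. For rising dose at 7 days, Sfrp4 had group means of 1061 ± 483, 1618 ± 441 and 1328 ± 289 CPM (SD, n = 5, 4 and 3). Its log2 difference between 2 and 0 mg/kg was 0.61 (95% interval 0.03 to 1.19, adjusted p = 0.297), and the 2 groups overlapped. Axin2 was at 4.21 ± 0.485, 5.62 ± 1.96 and 5.97 ± 2.46 CPM, and its log2 difference between 6 and 0 mg/kg was 0.51 (0.02 to 1.01, adjusted p = 0.817). Wnt5a at 21 days was at 11.4 ± 0.894, 8.87 ± 2.23 and 10.4 ± 1.60 CPM, with a log2 difference of -0.36 (-0.69 to -0.03, adjusted p = 0.544) between 2 and 0 mg/kg. For the other genes the intervals against 0 mg/kg included 0. They were narrowest for Dkk2 and widest for Frzb, where 21D 6 mg/kg differed from 0 mg/kg by -0.68 (-1.57 to 0.20). These intervals leave room for differences of more than 1.5-fold in several genes.

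The 9 genes also fell into patterns across tendons, given here as Pearson correlations of log2 CPM over the 27 repaired tendons, which share the split by time. Sfrp1 and Sfrp2 had r = 0.93, Wnt5a had r = 0.86 with Sfrp1, 0.85 with Sfrp2 and 0.84 with Frzb, and Frzb had r = 0.85 with Sfrp1 and 0.83 with Sfrp2. Sfrp4 stood apart from them, with r between 0.20 and 0.35 for those 4 genes. Dkk3 was negatively related to them, from -0.59 with Sfrp2 to -0.70 with Frzb. Wnt5b had r = 0.31 with Wnt5a.

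Over all 30 tendons, the genes most like each WNT gene were named by the highest r. For Sfrp1 they were C3, the central complement protein, at r = 0.95, the protease Pcsk5 at 0.94 and the glutamate transporter Slc1a3 at 0.94. Svep1, a matrix adhesion protein, had r = 0.90 with Sfrp2, followed by Pcsk5 at 0.89 and Cd209f at 0.88. Sfrp4 was most like C1s, a complement protease, at 0.95, Abracl at 0.94 and Acer3 at 0.94, but over the repaired tendons alone these were 0.58, 0.64 and 0.51. Dkk3 was most like Plxdc2 at 0.94, Fndc1 at 0.94 and Chpf, a chondroitin polymerizing factor, at 0.92. Frzb was most like Kcnip1 at 0.91, Mmd at 0.89 and Cdca7 at 0.89. The other 4 genes had weaker neighbours, with r of 0.84 between Wnt5a and Lgals12, 0.84 with Pde1b and 0.84 with Aox3, 0.82 between Wnt5b and Rabepk, 0.77 with Olfml3 and 0.75 with Rasl11b, 0.74 between Dkk2 and Paics, 0.74 with Slco3a1 and 0.73 with RGD1305645, and 0.74 between Axin2 and Gnao1, 0.73 with Cped1 and 0.72 with Fam53b. Over the repaired tendons alone those of Dkk2 were 0.59, 0.57 and 0.51, and those of Wnt5b 0.74, 0.68 and 0.64.

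Of 95 other WNT pathway genes listed, 66 were in the count table and 64 were tested. Against controls 24 of the 64 rose and 21 fell in the 7D 0 mg/kg group, and 23 rose and 19 fell in the 21D 0 mg/kg group, beside 71.4% and 65.9% of all genes called. At 2 and 6 mg/kg the counts were 25 and 18, and 21 and 21 at 7 days, and 24 and 21, and 22 and 21 at 21 days. Some of these genes were tested only because of the groups where they were high. Wnt4, Fzd9, Tnfrsf19 and Celsr2 averaged 3 CPM or more only in controls. Wnt10b, Sfrp5, Fzd3, Rspo2, Tcf7, Lef1 and Wisp1 did so only in repaired groups. These lists go by TMM-scaled CPM, while the filter used CPM before that scaling, which is lower in controls. Wif1, Ror2 and Wnt9a, at 3.90, 4.11 and 4.10 scaled CPM in controls, may therefore also have passed only through repaired groups. The counts, and the medians that follow, therefore support nothing on the list as a set. The median log2 fold change of the 64 genes was 0.00 at 7D 0 mg/kg and 0.19 at 21D 0 mg/kg. Named below are the genes with the highest CPM in each group, which is not scaled by transcript length, whatever their change, unless said otherwise.

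Among the other ligands 1 of 5 was higher and 2 lower at 7D 0 mg/kg, and 2 and 2 at 21D 0 mg/kg. Wnt2, a ligand of the beta-catenin pathway, rose from 5.64 ± 4.84 CPM (n = 3) in controls to 17.2 ± 5.80 (n = 5) at 7D and 21.6 ± 7.09 (n = 5) at 21D 0 mg/kg (log2 fold changes 1.57 and 1.90, adjusted p = 0.00345 and 0.000913). Wnt11, a ligand of beta-catenin-independent signaling, fell from 19.6 ± 0.466 to 9.01 ± 2.74 and 11.6 ± 2.82 CPM (-1.12 and -0.75). Wnt9a was at 4.10 ± 1.85, 3.14 ± 0.907 and 5.36 ± 1.83 CPM and did not pass the test. Of 3 other secreted inhibitors 1 was lower at either time, Dkk4, at 19.8 ± 5.21 CPM in controls and 8.71 ± 1.08 and 9.32 ± 1.36 CPM after repair. Sfrp5 was below 1 CPM in controls and spread widely at 21D 0 mg/kg, at 3.84 ± 3.53 CPM. Wls, the carrier that takes WNT proteins to the cell surface, and Porcn, the enzyme that adds their lipid, did not pass the test, with log2 fold changes of -0.27 and 0.01 at 7D 0 mg/kg and -0.24 and -0.02 at 21D 0 mg/kg.

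In the receptors 13 of 14 genes differed from control, 8 higher and 5 lower, in both 0 mg/kg groups. Fzd4 fell from 215 ± 66.8 CPM to 118 ± 23.2 and 85.9 ± 29.4 CPM (-0.86, adjusted p = 0.0222, and -1.32, adjusted p = 0.00110). Ryk fell from 137 ± 9.28 to 75.0 ± 3.16 and 86.2 ± 7.33 CPM. Fzd1 rose from 19.1 ± 3.81 to 98.1 ± 22.9 and 82.5 ± 18.4 CPM, with log2 fold changes of 2.36 and 2.11. Chosen after their values were seen, Ror2, a receptor for Wnt5a, rose from 4.11 ± 1.65 to 29.5 ± 6.65 and 18.4 ± 4.498 CPM (2.82 and 2.15), and Ptk7, a polarity coreceptor, rose from 4.27 ± 0.191 to 38.1 ± 18.5 and 16.5 ± 4.21 CPM (3.15 and 1.95). Of the R-spondins and their receptors, which enhance WNT signaling, 1 of 4 was higher and 2 lower at both times. Rspo2 rose from 0.696 ± 0.330 to 4.71 ± 0.561 and 7.49 ± 1.72 CPM (2.69 and 3.36). It passed the filter only through the repaired groups, so it was tested only because it was high there and its calls support nothing on this list. Lgr4 fell by 0.84 and 0.76 on the log2 scale, and Rspo1 differed by -0.47 and -0.40 without passing the test.

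In the cytoplasm, Ctnnb1, which encodes beta-catenin, was at 222 ± 3.99 CPM in controls, 251 ± 41.0 at 7D and 251 ± 37.1 CPM at 21D 0 mg/kg, and did not pass the test (0.18 and 0.18). Csnk1a1, a kinase of the beta-catenin destruction complex, fell by 0.58 at both times and Dvl1, which relays the Frizzled signal, fell by 1.20 and 0.88. In this group 1 of 9 was higher and 5 lower at 7D, and 0 and 4 at 21D 0 mg/kg. Nuclear genes had 7 of 13 higher and 3 lower at 7D and 5 and 3 at 21D 0 mg/kg. The corepressor Tle3 rose by 1.26 and 1.23, Pygo2 by 0.65 and 0.51, and Bcl9l was at 0.00 and -0.19. Of 7 target genes 2 were higher and 2 lower at 7D and 3 and 1 at 21D. Myc rose from 15.0 ± 4.83 to 60.03 ± 16.04 and 33.9 ± 8.17 CPM, Ccnd1 was 103 ± 26.2, 92.3 ± 13.4 and 138 ± 19.4 CPM and was called higher only at 21D 0 mg/kg (0.42, adjusted p = 0.0328), and Apcdd1 did not pass the test (0.24 and 0.24). Of 7 polarity genes 4 were higher and 1 lower at both times. Prickle1 rose by 1.89 and 1.39 and Daam1 by 0.51 and 0.75, and Scrib was at -0.17 and -0.19 without passing the test.

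**Figure D5:**
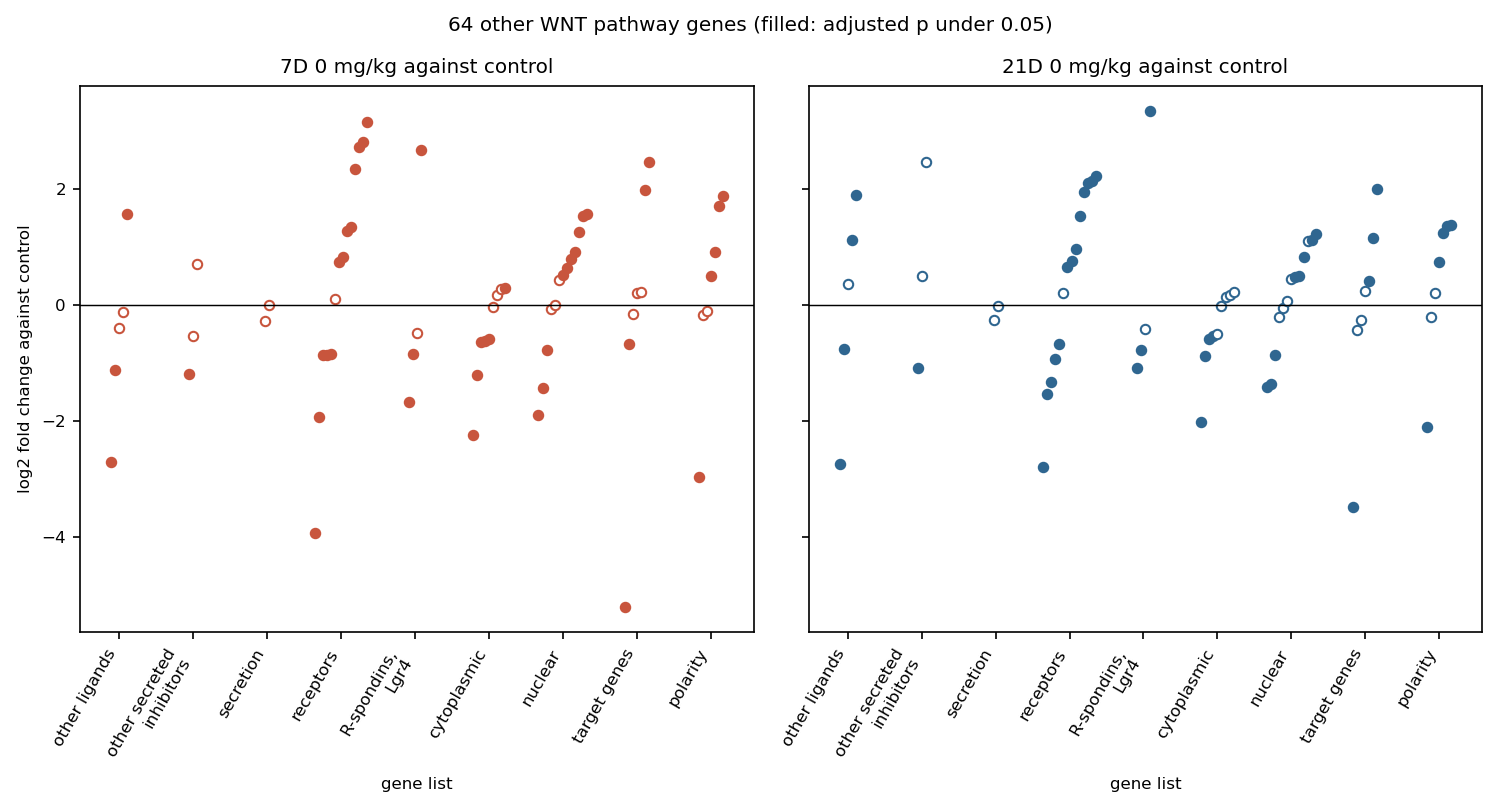
Log2 fold change of the 64 other WNT pathway genes at 7D 0 mg/kg and 21D 0 mg/kg against control tendons, 1 point per gene in groups by role, where filled points passed an adjusted p of 0.05. The receptors split into 8 higher and 5 lower genes in both panels, and the secretion genes stay near 0.

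From 7 to 21 days few of these genes moved. Of the 64, 3 rose and 2 fell with 0 mg/kg, 4 rose and 4 fell with 2 mg/kg, and 2 rose and 6 fell with 6 mg/kg, beside 5.35, 13.1 and 13.1% of all genes. These counts moved when single tendons were left out. Counts of all genes are not given for those omissions, so the shifts cannot be set beside the background. At 0 mg/kg 0 genes were called without 7D 0 mg/kg replicate 3. The count was 3 at 2 mg/kg without 7D 2 mg/kg replicate 5 and 1 at 6 mg/kg without 7D 6 mg/kg replicate 4. At 0 mg/kg 2 genes were called without 7D replicate 4 or 5 or 21D replicate 4 or 5, 8 without 21D replicate 3 and 12 without 21D replicate 2. At 2 mg/kg 5 were called without 21D replicate 1. At 6 mg/kg the count was 2 without 7D replicate 1 or 21D replicate 2, 3 without 7D replicate 5 or 21D replicate 1, and 4 without 21D replicate 4. Myc was lower at 21 days at 0 mg/kg (-0.83, adjusted p = 0.0419) and 2 mg/kg (-0.87, adjusted p = 0.0212), and Fzd4 was lower at 2 mg/kg (-1.16, adjusted p = 0.0133). Prickle1 was lower at 6 mg/kg (-0.53, adjusted p = 0.0464). Ryk was higher at 2 mg/kg (0.24, adjusted p = 0.0469) and 6 mg/kg (0.28, adjusted p = 0.0389), and Ccnd1 was higher at 0 mg/kg (0.58, adjusted p = 0.0237). Wif1 was higher at 0 mg/kg (1.04, adjusted p = 0.0220) and lower at 2 mg/kg (-1.01, adjusted p = 0.0149). Between doses at 7 days, 2 of the 64 genes differed between 2 and 0 mg/kg, a share close to that of all genes (2.36%). Wif1, a secreted WNT inhibitor, had 2.70 ± 0.730, 8.07 ± 3.52 and 4.10 ± 1.75 CPM for rising dose (1.58 for 2 against 0 mg/kg, adjusted p = 0.00218). Ptk7 was lower by 1.38 on the log2 scale at 2 than at 0 mg/kg (adjusted p = 0.0115), at 14.6 ± 3.62 against 38.1 ± 18.5 CPM. The muscle share did not overlap between 7D 0 and 2 mg/kg, and its part in these differences was not tested.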

How the data were processed

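Adapters were removed by the authors with fastp, and STAR aligned the reads to rn6 (rat) and tallied those in Ensembl exons. The authors deposited raw counts per gene for 30 tendons. Their edgeR comparison table holds fold changes and p-values that were not used. Gene identifiers and chromosomes came from the count table and that deposited table, whose other values include the span of each gene in bases, not an exonic length, so CPM was not scaled by length and ranked genes only to choose which to name. At 7D 6 mg/kg the methods leave 4 tendons and the labels 3, which were used.

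The filter on low counts kept 12558 of 13124 genes, those averaging 3 CPM or more, before TMM scaling, in any of the 7 groups. The main test was the quasi-likelihood test of edgeR 4.0.16 in R 4.3.3, with TMM, a mean per group, all 30 tendons and Benjamini-Hochberg adjustment over the genes kept. The standard error is the log2 fold change divided by the square root of F. Log2 CPM used a prior count of 2. At these depths 3 counts correspond to 0.0601 to 0.242 CPM, which covers counting error only since reads carried no molecular identifiers. Tendons were labelled as separate samples, and the closest pair of a group had a chi-square of 29.9 per gene. The scripts were tested on simulated data.

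The 9 genes and all gene lists were chosen with earlier results of these data known. The text names the 9 genes, the 3 genes of highest CPM in each pathway group (2 for secretion), the 3 genes most like each of the 9, and genes marked as chosen after their values were seen. Alternatives were RLE factors, library size only, TMM without muscle markers, 2 other filters, fits of the compared groups alone, a replicate block, a muscle covariate, limma 3.58.1, DESeq2 1.42.0, a 1.5-fold threshold, a prior count of 0.25 and leaving out each tendon. Genes of the lists missing from the count table were not analysed here.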

Additional observations from a re-analysis of the deposited data

Results flagged for a closer look

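Each of the 9 genes was looked at in the 5 groups of 4 or 5 tendons, giving 45 combinations. In 4 of them a tendon lay far from the others of its group, where normally distributed values give about 1 in 20 by chance. The combinations share tendons and are not independent. Wnt5b was at 16.8 CPM in 21D 6 mg/kg replicate 3, against at most 9.54 CPM in the other 4 tendons. Dkk3 was at 534 CPM in 21D 0 mg/kg replicate 3, against at most 302 CPM. Axin2 was at 4.62 CPM in 21D 0 mg/kg replicate 2, against at least 6.23 CPM. Dkk2 was at 35.3 CPM in 7D 2 mg/kg replicate 2, where the other 3 lay between 33.0 and 33.4 CPM, so that gap is small in size.

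The effect of repair differed between 7 and 21 days for 4 genes, by the test of the 2 repaired groups against each other, which share the same controls. The 4 include Frzb, which was tested only because it was high at 7 days. At 0 mg/kg the call of Wnt5a was lost without 7D 0 mg/kg replicate 3. That of Frzb was lost without 7D 0 mg/kg replicate 3 or 5 or 21D 0 mg/kg replicate 1 or 4. On the log2 scale the difference at 0, 2 and 6 mg/kg was -0.65, -1.02 and -0.97 for Wnt5a, -1.14, -1.17 and -1.06 for Sfrp1, -1.83, -1.70 and -1.99 for Sfrp2, and -1.60, -1.89 and -2.499 for Frzb.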

How the results depend on the processing

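Of 2469 combinations of a WNT gene, a comparison and a setting, 2350 kept their direction and side of the threshold, 80 lost a call and 37 gained one, with 96 sign changes among differences that were not called counted as unchanged. Scaling by library size only turned 2 called values to the other sign, Wnt5a at 21D 6 mg/kg (0.0220) and Dkk2 at 21D 2 mg/kg (0.0207) against control. It moved the median log2 fold change of all genes against control to between 0.51 and 0.64. With the muscle share as a covariate the WNT genes called fell to 3 at 7D 2 mg/kg and 2 at 7D 6 mg/kg against control, and to 2 at 2 mg/kg and 0 at 6 mg/kg for 21 against 7 days. Of all 12558 genes that setting called 1381 and 1408 in the first pair and 1786 and 277 in the second. The muscle share did not overlap between the groups of these comparisons, so the covariate cannot be told apart from repair or from time there. The cause was not tested.

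The counts of the 64 other pathway genes also moved. The covariate gave 8 at 7D 2 mg/kg and 8 at 7D 6 mg/kg against control, and 3, 13 and 3 for 21 against 7 days at 0, 2 and 6 mg/kg (285, 1786 and 277 of all genes). In those time comparisons the filter on every group called 3 with 0 mg/kg (464 of the 10258 genes it kept) and 2 with 6 mg/kg (883). DESeq2 called 11 with 0 mg/kg (1496 of all genes) and 14 with 2 mg/kg (2289). The fit of the compared groups alone called 2 with 0 mg/kg, beside 458 of all genes, and limma called 5 with 6 mg/kg, beside 1401. The 1.5-fold threshold called 4 with 2 mg/kg and 5 with 6 mg/kg, and a count of all genes is not given for that setting. Leaving out 1 tendon at a time gave 0 to 12 genes at 0 mg/kg, the lowest without 7D 0 mg/kg replicate 3 and the highest without 21D 0 mg/kg replicate 2, 3 to 9 at 2 mg/kg and 1 to 10 at 6 mg/kg. For the 9 WNT genes it gave 2 to 4 at 0 mg/kg. Counts of all genes are not given for these omissions, so the ranges cannot be set beside the background.

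The labels do not say that replicate numbers pair tendons. Deviations from group means of the 76 same-numbered pairs had a median correlation of 0.00685, against 0.00878 for 307 other pairs, and 6 of 30 tendons correlated best with their own number. With a replicate block 8, 6 and 7 of the 9 genes were called at 7 days and 4, 5 and 5 at 21 days against control. Of all 12558 genes the block called 8887, 8680 and 8390 at 7 days and 8212, 8667 and 7987 at 21 days. The block brought a call of Wnt5b at 7D 0 mg/kg (adjusted p = 0.0283) and lost those of Sfrp2 at 21 days (0.0552, 0.0783 and 0.0730), at log2 fold changes of 0.87, 0.80 and 0.81. Depth limits Frzb most, with 9 to 45 counts in controls.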
